A study of Mus musculus with 12 samples.

Results

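The small heat shock proteins are chaperones built around an alpha-crystallin domain, and 7 of their genes were described here in mouse hearts: Hspb1, Hspb2, Hspb3, Cryab, Hspb6, Hspb7 and Hspb8. They were chosen by gene name among 52858 genes in the deposited tables. RNA from 12 hearts was sequenced, 3 hearts in each of 4 groups. The hearts had been isolated and perfused on a Langendorff apparatus, and either perfused without interruption (non-IR) or exposed to global ischemia followed by reperfusion (IR). The C57-non-IR and C57-IR groups were from wild-type C57BL/6J mice, and Slit2-Tg mice gave the Slit2-non-IR and Slit2-IR groups. The study names C57BL/6J as the background strain of the Slit2-Tg mice. All were adult males. The Slit2-Tg mice carry a human Slit2 cDNA under the CMV promoter, which is not specific to the heart. Where it is expressed was not measured here. The construct was injected into fertilized oocytes of C57 and CBA hybrids, and how much CBA DNA remained in the line is not given. In differences between the genotypes, the transgene and any remaining CBA DNA cannot be told apart. Mouse Slit2 was at 0.0847 to 0.813 FPKM in all 12 libraries, which does not check a transgene of human sequence. FPKM is a count of fragments scaled by the length of the gene and, in these data, by a median-of-ratios size factor of the library.

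Small heat shock proteins bind partly unfolded proteins without using ATP and hold them until other chaperones, such as Hsp70, refold them or pass them to degradation. They form dimers and larger oligomers, and several are phosphorylated in stress. Cardiac muscle is rich in them, where they associate with desmin filaments, titin and the Z-disc. Hspb1 and Cryab are classic targets of the heat shock factor Hsf1, a transcription factor that binds repeated nGAAn units in promoters of heat shock genes.

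All 7 genes are protein coding and were located on GRCm38 (mm10) coordinates given with the data. Hspb1 (ENSMUSG00000004951) lies at chr5:135887919-135889563 on the plus strand, and Hspb8 (ENSMUSG00000041548) at chr5:116408491-116422864 on the minus strand. Hspb3 (ENSMUSG00000051456), at chr13:113662896-113663676 on the minus strand, has a single exon. Hspb6 (ENSMUSG00000036854) lies at chr7:30552178-30555443 and Hspb7 (ENSMUSG00000006221) at chr4:141420779-141425311, both on the plus strand. Cryab (ENSMUSG00000032060, chr9:50751325-50756636, plus strand) and Hspb2 (ENSMUSG00000038086, chr9:50751078-50752354, minus strand) are neighbours on opposite strands whose gene models overlap. In the GENCODE vM21 models 252 exonic bases belonged to both, which is 17.0% of the exonic bases of Cryab and 30.2% of those of Hspb2. Only the Cryab transcripts that start at chr9:50751325 and chr9:50751877 reach Hspb2. The 3-exon Cryab transcript ENSMUST00000034562 starts at chr9:50752907, outside Hspb2. Reads from the shared bases cannot be told apart without strand information. How such reads were counted is not given, so the levels of this pair may be partly shared.

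RefSeq promoter windows (GRCm38.p6, 250 bases before to 50 after a start) matched 5 of the 7 genes, and Cryab and Hspb2 had none in the table. The windows were searched on both strands for a pair of facing heat shock units, written GAANNTTC or TTCNNGAA, where N is any base. Of 32851 windows of that length, 15.1% held such a match and 1.96% held 2 or more. The Hspb1 window held 2 matches and those of Hspb3, Hspb8 and the second Hspb6 start held 1 each, whereas the first Hspb6 start and Hspb7 had none. A run of 3 units (GAANNTTCNNGAA or TTCNNGAANNTTC), present in 0.603% of all windows, was in none of the 6 member windows. The letters GAAGTTTC stood in the windows of Hspb1, Hspb6 and Hspb8, and on either strand in 1.21% of all windows. These letters were singled out after the matches were seen. The 3 stretches that share them are shown because these genes had the lowest unadjusted p-values of the family after IR when the genotypes were averaged. Each runs from 250 bases before to 10 bases after the start, 5′ to 3′, and capitals mark the matches.
Hspb1 (chr5:135887669-135887928, plus strand): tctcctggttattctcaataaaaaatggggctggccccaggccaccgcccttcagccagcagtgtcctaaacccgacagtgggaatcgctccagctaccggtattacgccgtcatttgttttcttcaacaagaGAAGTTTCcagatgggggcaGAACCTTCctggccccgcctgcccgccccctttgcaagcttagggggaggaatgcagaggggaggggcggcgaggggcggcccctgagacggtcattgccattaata
Hspb6, second start (chr7:30553051-30553310, plus strand): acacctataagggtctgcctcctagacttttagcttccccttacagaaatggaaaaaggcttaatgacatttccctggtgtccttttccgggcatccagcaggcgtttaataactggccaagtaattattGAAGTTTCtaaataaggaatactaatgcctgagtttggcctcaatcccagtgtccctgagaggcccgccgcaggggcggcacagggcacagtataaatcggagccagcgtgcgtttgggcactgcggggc
Hspb8 (chr5:116422855-116423114, minus strand): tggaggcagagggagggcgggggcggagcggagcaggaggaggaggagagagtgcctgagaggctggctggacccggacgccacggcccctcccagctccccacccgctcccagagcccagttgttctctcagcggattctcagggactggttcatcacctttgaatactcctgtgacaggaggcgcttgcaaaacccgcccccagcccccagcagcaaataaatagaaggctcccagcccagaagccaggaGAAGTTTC
The matched letters lay 117 to 110 bases and 97 to 90 bases before the Hspb1 start and 120 to 113 bases before the second Hspb6 start. In Hspb8 they lay at bases 3 to 10 after the start. A letter match describes the window and is not a measured binding site. Whether such letters go with the response to IR was not tested. Among chaperones described below, the Dnajb1 windows held 0 matches and those of Hspa1a and Hspa1b 1 each. Each window of Hsph1 and Hspe1 held 3, as did the second Hspd1 start, whereas the first Hspd1 start held 0. The Bag3 window held 1 and that of Hspa4l 0. Dnaja1 and Dnajb4 held 1 match in 1 window each and 0 in their other windows. Runs of 3 units were in the windows of Hsph1, Hspe1 and the second Hspd1 start.

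The libraries held 16601154 to 24841291 reads on genes, and the mitochondrial share was 19.7% to 26.0%. All 8 ventricular cardiomyocyte markers were present, with summed FPKM of 14887 to 22719. Summed atrial markers were 23.1 to 238 FPKM in 11 libraries and 1733 FPKM in Slit2-IR replicate 1, where Myl7, an atrial myosin light chain, reached 1049 FPKM. That library also had the highest Hspb1, Hspb6, Hspb7 and Hspb8 of all 12, so the main IR differences of these genes are also given without it, and the part of atrial tissue in them was not tested. C57-IR replicate 2 had the next highest atrial sum and the highest Hspb1 of its group. Summed blood markers were 8.35 to 16.2 FPKM in C57-non-IR and 1.47 to 6.79 FPKM in C57-IR hearts, whereas the Slit2 groups overlapped, at 4.53 to 49.0 FPKM without and 1.85 to 12.9 FPKM with IR, and their part was not tested either. Replicate 1 stood apart in every group. It had the highest ventricular marker sum of its group, and its reads differed from those of replicates 2 and 3 by a chi-square of 35.9 to 54.3 per gene, against 8.66 to 39.5 between replicates 2 and 3. Smooth muscle markers summed to 66.7 to 147, endothelial markers to 126 to 198 and fibroblast markers to 103 to 202 FPKM. Lung markers reached at most 12.4, adipose markers 17.2 and skeletal muscle markers 3.60 FPKM. In bulk tissue fewer cells of a type and less RNA per cell cannot be told apart.

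Per length, Cryab, Hspb1 and Hspb7 were among the most abundant nuclear transcripts of these hearts. Averaged over the 12 libraries, Cryab was at 811 FPKM (rank 27 of the nuclear genes), Hspb1 at 749.6 (rank 33) and Hspb7 at 707 (rank 38). Hspb6 followed at 329 FPKM, Hspb8 at 230.6, Hspb2 at 52.9 and Hspb3 at 8.10. The reads behind each value ranged from 73 to 165 per library for Hspb3, and were at least 669 for each other gene. Hspb1 varied most, with a coefficient of variation over the 12 libraries of 65.4%, against at most 22.8% for each other gene.

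The order of levels differed between perfused and reperfused hearts in the place of Hspb1. In C57-non-IR hearts the order was Cryab at 796 ± 155 FPKM (SD, n = 3), Hspb7 at 661 ± 78.0, Hspb1 at 359 ± 135, Hspb6 at 302 ± 18.9 and Hspb8 at 208 ± 9.19. Cryab overlapped Hspb7 and Hspb1 overlapped Hspb6 in range there. In Slit2-non-IR hearts the order was the same, and each of these neighbours overlapped except Hspb7 and Hspb1. In both IR groups Hspb1 came first, at 1043 ± 228 FPKM in C57-IR and 1283 ± 425 FPKM in Slit2-IR hearts, and overlapped Cryab in range. Hspb1 was above Cryab in 5 of 6 IR hearts and in 0 of 6 non-IR hearts.

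**Figure D1:**
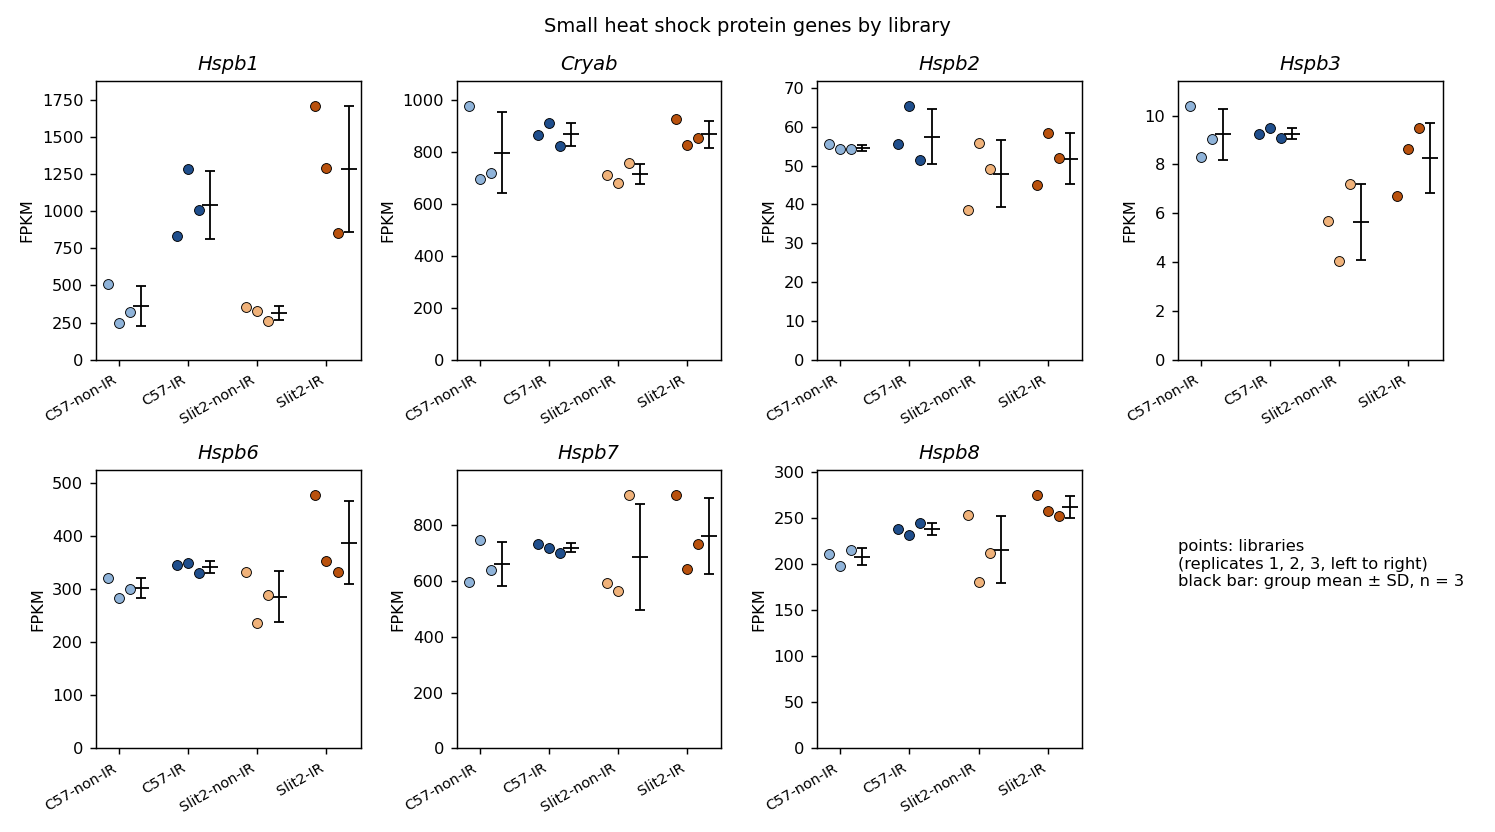
FPKM of each of the 7 genes (y axis, from 0) in each library, by group (x axis), with points for replicates 1 to 3 from left to right and a black bar for the group mean ± SD (n = 3). Hspb1 lay at 249 to 509 FPKM in non-IR hearts and 835 to 1706 FPKM in IR hearts, whereas the ranges of the other 6 genes in non-IR and IR hearts overlapped.

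The main question for this family was whether its transcripts differed after IR in each genotype. Hspb1, an oligomeric chaperone that also stabilises actin filaments, was the member with the largest difference. In C57-non-IR hearts it was at 509, 249 and 319 FPKM, and in C57-IR hearts at 835, 1287 and 1006 FPKM. In Slit2-non-IR hearts it was at 354, 327 and 261 FPKM, and in Slit2-IR hearts at 1706, 1287 and 855 FPKM. Every IR heart was above every non-IR heart, and the spread was wider among the IR hearts.

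With the genotypes averaged, Hspb1 rose by 1.78 on the log2(FPKM + 1) scale (SE 0.21, 95% confidence interval 1.32 to 2.24), a fitted 3.43-fold difference. It passed the limma test at an adjusted p of 0.00177, with adjustment over all 15258 genes tested. It was the only one of 7 members called higher there, where 2.33% of all tested genes were. It was also the only member whose 6 IR and 6 non-IR hearts did not overlap, as for 2.23% of tested genes with higher IR values. The call held in all 19 alternatives, with log2 differences of 1.66 to 1.92 and adjusted p from 0.000839 to 0.00918. Without Slit2-IR replicate 1 the difference was 1.66 (adjusted p = 0.005 in limma). Without replicate 1 of every group, an alternative chosen after seeing the data, it was 1.93 (adjusted p = 0.00427 in limma).

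Within Slit2 hearts Hspb1 rose by 1.98 (SE 0.30, adjusted p = 0.0237 in limma), and the means differed 4.08-fold. This was 1 of 7 members called higher, against 0.426% of all tested genes. The adjusted p was 0.0113 to 0.112 over the alternatives, and the call was lost without any of the 3 Slit2-non-IR replicates, without C57-non-IR replicate 3, and without Slit2-IR replicate 1 or 2. The log2 difference was then between 1.75, when Slit2-IR replicate 1 was left out, and 2.07, when Slit2-non-IR replicate 1 was, with adjusted p of 0.0513 to 0.112 in limma. It was also lost without a filter on low values, at an adjusted p of 0.0709 in limma, and without replicate 1 of every group, at 0.0594. Blocking on the replicate number kept the call (SE 0.27, adjusted p = 0.0153 in limma). Same-numbered libraries deviated together in this comparison, but those with different numbers were not examined, so pairing by number is not settled.

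Within C57 hearts the log2 difference of Hspb1 was 1.58 (SE 0.30, 95% confidence interval 0.93 to 2.23), with means 2.90-fold apart and a limma adjusted p of 0.0513, which missed the 0.05 threshold. So 0 of 7 members were called, where 0.387% of tested genes were called higher, and Hspb1 was the single member with an unadjusted p under 0.05, as for 4.54% of tested genes. Its adjusted p ranged from 0.0301 to 0.238 over the alternatives and was under 0.05 in 6 of 20. Among these were the fits without C57-IR replicate 1 (0.0311) and without Slit2-IR replicate 3 (0.0402), and those with a pseudocount of 0.1, a stricter filter, a replicate block or a robust prior. Without replicate 1 of every group it was 0.0203. The difference between genotypes in the IR response of Hspb1 was itself tested and did not pass. It was 0.40 on the log2 scale (SE 0.42, 95% confidence interval -0.52 to 1.33). With 1 library left out it was 0.12 (without C57-non-IR replicate 1) to 0.67 (without Slit2-IR replicate 3), and 0.17 without Slit2-IR replicate 1. Without replicate 1 of every group it was -0.17.

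**Figure D2:**
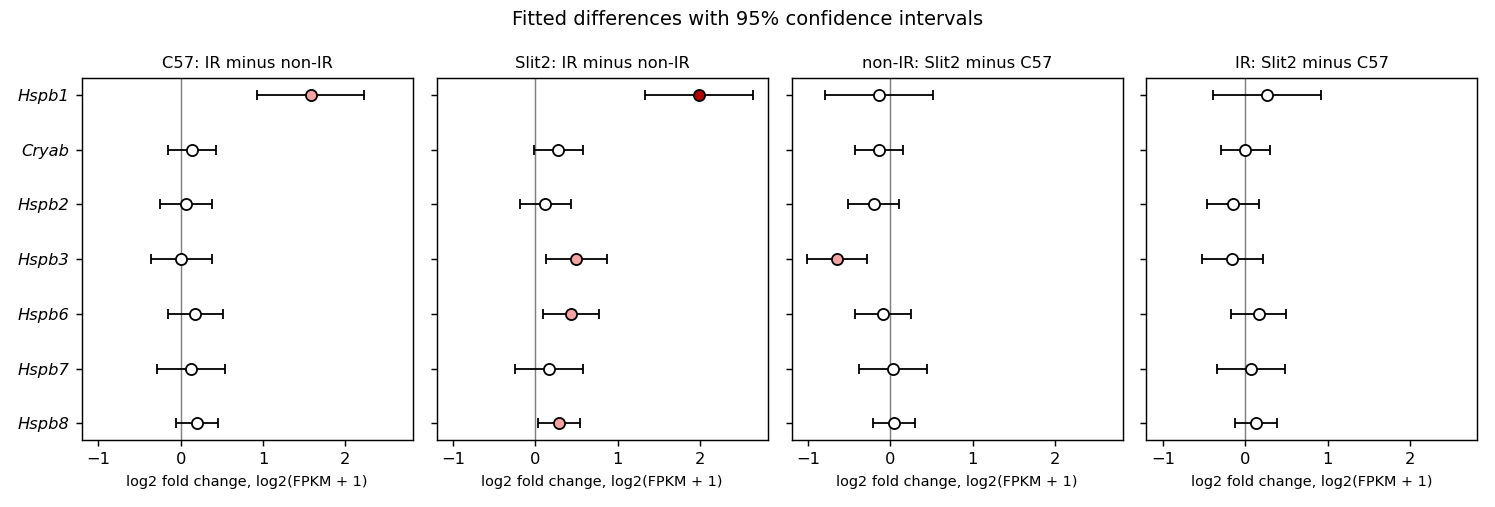
Fitted log2 differences of log2(FPKM + 1) (x axis) for the 7 genes (y axis) in 4 comparisons, with 95% confidence intervals from limma over 12 libraries. Dark red points passed the adjusted threshold of 0.05, light red points passed 0.05 only unadjusted, and white points passed neither. Hspb1 stood at 1.58 and 1.98 in the IR comparisons, and Hspb3 at -0.65 between the non-IR groups.

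The other 6 members had fitted IR differences above 0 in both genotypes, and none passed the adjusted threshold. With scaling to nuclear reads, which moved the median of all genes by -0.05, Hspb2 and Hspb3 in C57 hearts turned to -0.02 and -0.07. The median over the 7 members was 0.14 in C57 and 0.29 in Slit2 hearts, against 0.00 and 0.01 over all genes tested. A difference above 0 was found for 50.4% and 51.6% of all tested genes. In Slit2 hearts 4 of 7 members had an unadjusted p under 0.05 with higher values (Hspb1, Hspb3, Hspb6 and Hspb8), as for 6.15% of tested genes. Over the alternatives this count was 1 to 5, and it was 2 (Hspb1 and Hspb3) without Slit2-IR replicate 1 and 1 without Slit2-non-IR replicate 2.

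Cryab, the partner of desmin among these chaperones, was at 974, 696 and 718 FPKM in C57-non-IR and 865, 910.4 and 824 FPKM in C57-IR hearts. It was at 709, 681 and 756 FPKM in Slit2-non-IR and 925, 825 and 851 FPKM in Slit2-IR hearts. C57-non-IR replicate 1 was above all C57-IR hearts, whereas all Slit2-IR hearts were above all Slit2-non-IR hearts. The log2 differences were 0.14 in C57 and 0.28 in Slit2 hearts, and 0.21 averaged (95% confidence interval -0.00 to 0.42, adjusted p = 0.32 in limma). Without C57-non-IR replicate 1 the C57 difference was 0.29 and the averaged one 0.28 (adjusted p = 0.0591 in limma, within a range of 0.0591 to 0.543 over alternatives). Cryab thus did not pass the threshold in any fit, and the interval allows an increase of up to 0.42.

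Hspb6, a phosphorylated chaperone of striated and smooth muscle, was at 321, 283 and 301 FPKM in C57-non-IR and 346, 349.5 and 329 FPKM in C57-IR hearts. It was at 331, 237 and 289 FPKM in Slit2-non-IR and 477, 352 and 332 FPKM in Slit2-IR hearts. IR hearts were above non-IR hearts without overlap within each genotype, although Slit2-IR replicate 3 was only just above Slit2-non-IR replicate 1. The log2 differences were 0.18 in C57 and 0.43 in Slit2 hearts, and 0.31 averaged (SE 0.11, adjusted p = 0.174 in limma). Without Slit2-IR replicate 1, which held the highest value, the Slit2 difference was 0.27 and no longer passed an unadjusted 0.05, and the averaged one was 0.23. Hspb6 overlaps 122 bases of Proser3 and 3 bases of Lin37 on the other strand.

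Hspb8, which works with Bag3 in removing damaged proteins, was at 211, 197 and 215 FPKM in C57-non-IR and 238, 231 and 245 FPKM in C57-IR hearts. It was at 253, 181 and 212 FPKM in Slit2-non-IR and 275, 257 and 252 FPKM in Slit2-IR hearts. The C57 groups did not overlap, and Slit2-non-IR replicate 1 was just above the lowest Slit2-IR heart. The log2 differences were 0.20 and 0.29, and 0.24 averaged (SE 0.08, adjusted p = 0.154 in limma). Hspb1, Hspb6 and Hspb8 were the 3 of 7 members with an unadjusted p under 0.05 in the averaged comparison, as for 7.92% of tested genes with higher values. Without Slit2-non-IR replicate 2 the Slit2 difference of Hspb8 was 0.17, and without Slit2-IR replicate 1 its averaged difference was 0.22.

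Groups that did not overlap were thus found for 3 of 7 members in C57 hearts (Hspb1, Hspb6 and Hspb8, against 6.74% of tested genes higher in this way). In Slit2 hearts they were found for Hspb1, Cryab and Hspb6, against 8.64% of tested genes. An exact permutation test of 3 against 3 hearts cannot give a p under 0.1.

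Hspb7, which limits actin filament growth in the sarcomere, ranged over 597 to 748 FPKM in C57-non-IR, 702 to 734 in C57-IR, 563 to 907 in Slit2-non-IR and 643 to 908 in Slit2-IR hearts. The groups overlapped, and Slit2-non-IR replicate 3, at 907 FPKM, was far above the other 2 hearts of its group at 591 and 563 FPKM. The averaged IR difference was 0.15 (95% confidence interval -0.14 to 0.44). It was 0.26 without Slit2-non-IR replicate 3, 0.08 without Slit2-IR replicate 1 and -0.01 without replicate 1 of every group. Hspb2, which binds and activates the kinase Dmpk and shares exonic bases with Cryab, ranged over 54.2 to 55.5 FPKM in C57-non-IR, 51.4 to 65.3 in C57-IR, 38.7 to 55.8 in Slit2-non-IR and 45.1 to 58.5 in Slit2-IR hearts. Its averaged IR difference was 0.09 (95% confidence interval -0.13 to 0.31). With 1 library left out it was 0.02 (without Slit2-non-IR replicate 1) to 0.15 (without replicate 2 of that group). The intervals of both genes do not allow a change as large as that of Hspb1, but allow smaller ones in either direction.

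Hspb3, a muscle member that forms oligomers with Hspb2, was the lowest of the family and the one with the largest difference between genotypes without IR. It was at 10.4, 8.30 and 9.03 FPKM in C57-non-IR and 5.68, 4.05 and 7.18 FPKM in Slit2-non-IR hearts. All 3 Slit2-non-IR hearts were below all 3 C57-non-IR hearts. After IR it was at 9.24, 9.48 and 9.06 FPKM in C57-IR and 6.69, 8.62 and 9.48 FPKM in Slit2-IR hearts, and these groups overlapped.

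Hspb3 in Slit2-non-IR differed from C57-non-IR by -0.65 on the log2 scale (SE 0.17, 95% confidence interval -1.02 to -0.28), with a limma adjusted p of 0.811 that did not pass. The mean was 0.61 times that of C57-non-IR, on the FPKM scale without the pseudocount. Among members 0 of 7 were called in this comparison, in which 0.0393% of tested genes were. Hspb3 was the single member with an unadjusted p under 0.05, as for 1.76% of tested genes with lower values, and the single one whose groups did not overlap, as for 4.57%. The unadjusted p was under 0.05 in all 20 alternatives, with differences between -0.81, when Slit2-non-IR replicate 3 was left out, and -0.46, when replicate 2 of that group was. The adjusted p was at least 0.377 in all of them. The 8 skeletal muscle markers summed to 1.62 to 2.42 FPKM in C57 and 2.48 to 3.60 FPKM in Slit2 hearts. Of these markers only Pvalb separated the genotypes, at 0 to 0.50 FPKM in C57 and 0.52 to 1.28 FPKM in Slit2 hearts. Tnni2, Mylpf and Tnnt3 overlapped between the genotypes. The part of these markers in the Hspb3 difference was not tested.

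Within genotypes Hspb3 differed after IR by 0.01 in C57 hearts (95% confidence interval -0.36 to 0.38) and by 0.50 in Slit2 hearts (0.13 to 0.87, adjusted p = 0.26 in limma). The difference of these responses was 0.49 (SE 0.24, 95% confidence interval -0.03 to 1.01) and did not pass an unadjusted 0.05. The comparisons of Slit2-non-IR with C57-non-IR and with Slit2-IR share the 3 Slit2-non-IR hearts, so they are not independent. Without Slit2-non-IR replicate 2, the lowest heart, the IR difference in Slit2 hearts was 0.31 and did not pass an unadjusted 0.05.

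For the other members no difference between genotypes passed an unadjusted 0.05, with or without IR. In IR hearts 0 of 7 members were called between Slit2-IR and C57-IR, where 0.0459% of tested genes were, and 0 had an unadjusted p under 0.05, as for 3.16% of tested genes. There Hspb1 differed by 0.27 (95% confidence interval -0.39 to 0.92), and by 0.03 without Slit2-IR replicate 1. Hspb8 was higher in all 3 Slit2-IR hearts than in all 3 C57-IR hearts, as for 3.04% of tested genes, with a log2 difference of 0.13 (SE 0.12, 95% confidence interval -0.12 to 0.39). Cryab differed by -0.00 (95% confidence interval -0.30 to 0.30). In the test of Slit2 by IR 0 of 7 members were called at the adjusted threshold or at an unadjusted 0.05, and 0% and 1.85% of tested genes were. All 7 fitted interactions were above 0, as for 51.2% of tested genes, with a median of 0.14. Leaving out 1 library turned 4 of them below 0. Hspb2 was then at -0.09 (without Slit2-non-IR replicate 1), Cryab at -0.02 (without C57-non-IR replicate 1), Hspb7 at -0.09 (without Slit2-IR replicate 1) and Hspb8 at -0.03 (without Slit2-non-IR replicate 2). The interaction of Hspb6 fell from 0.25 to 0.09 without Slit2-IR replicate 1. Averaged over IR states, Hspb3 differed by -0.40 between Slit2 and C57 hearts (SE 0.12, adjusted p = 0.692 in limma), where 0.131% of tested genes were called. It was the 1 of 7 members with an unadjusted p under 0.05 there, as for 2.11% of tested genes with lower values.

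The IR response of Hspb1 was then set against that of each other member in the same hearts. In all 6 such pairs the log2 ratio of Hspb1 to the other member was higher in every IR heart than in every non-IR heart. The ratio to Cryab was -1.53 to -0.93 in non-IR and -0.05 to 0.88 in IR hearts, and that to Hspb6 was -0.19 to 0.66 and 1.27 to 1.88. Over the 6 pairs the IR response of Hspb1 was larger by 1.47 to 1.69 on the log2 scale. A two-sided exact permutation test of IR labels within genotype gave p = 0.005 for each, the smallest of 400 relabelings, and 0.0175 after adjustment over the 21 pairs of members. The numbers were taken to pair the Slit2 hearts, so the test was repeated with Slit2 labels exchanged only within a number. This alternative was chosen after seeing the data. Each of the 6 pairs was then at p = 0.0125, the smallest of 160 relabelings in an exact permutation test, and at 0.0438 after adjustment. The C57 labels were left free, although replicate 1 also correlated between the C57 groups. Pairing in both genotypes would leave fewer relabelings and a larger smallest p, and was not tested. Without Slit2-IR replicate 1 the responses differed by 1.35 to 1.58, with exact permutation p = 0.005 for each (200 relabelings, adjusted p = 0.0175). Hspb1 had been singled out for its response before these ratios were tested. It already separated every IR heart from every non-IR heart, so the smallest possible p was largely set in advance. The 6 pairs also share the same Hspb1 values and are not 6 independent results. For the 15 pairs without Hspb1 the adjusted p was at least 0.758, at least 0.113 with paired labels and at least 0.63 without Slit2-IR replicate 1.

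The 7 genes together summed to 2048 to 2679 FPKM in non-IR and 3082 to 4341 FPKM in IR hearts. This was 0.802% to 0.991% and 1.12% to 1.53% of the summed FPKM of nuclear genes. The share of Hspb1 in the sum was 10.5% to 19.0% in non-IR and 27.1% to 39.3% in IR hearts. The highest sum, 4341 FPKM, was that of Slit2-IR replicate 1, and the next was 3573 FPKM in C57-IR replicate 2.

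**Figure D3:**
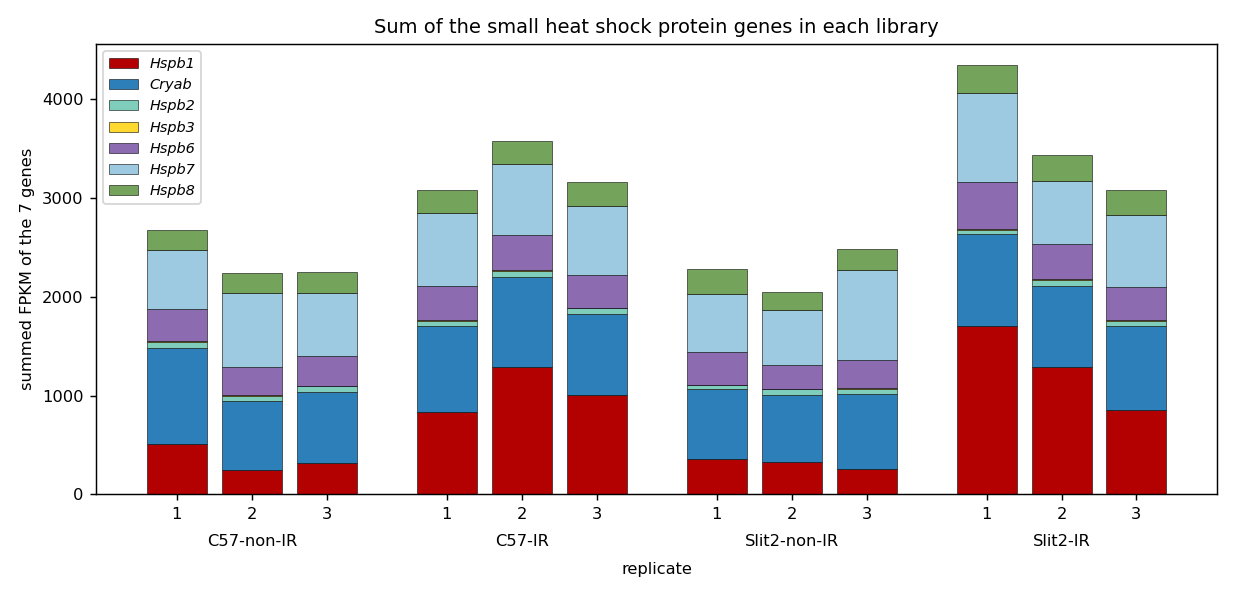
Summed FPKM of the 7 genes (y axis, from 0) in each library (x axis, replicates 1 to 3 of 4 groups), with 1 coloured segment per gene. The Hspb1 segment made up 10.5% to 19.0% of the bar in non-IR hearts and 27.1% to 39.3% in IR hearts.

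Across the 12 libraries, which share groups and depth, Hspb6 and Hspb8 had the most similar profiles in the family (Pearson r = 0.88), also after group means were removed (r = 0.78). Without Slit2-IR replicate 1 these were 0.89 and 0.91. Hspb1 had r = 0.79 with Hspb6, 0.76 with Cryab and 0.75 with Hspb8, and with group means removed 0.58, 0.65 and 0.27. Without Slit2-IR replicate 1 the latter 3 were 0.37, 0.62 and 0.18. Hspb2 and Hspb8 varied in opposite directions within groups (r = -0.82 with group means removed, -0.36 without). These are descriptions over at most 12 libraries in 4 groups and carry no test.

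Of 10180 protein-coding genes with a mean of at least 1 FPKM, the profiles closest to Hspb1 were those of Kdm6b, a histone demethylase (r = 0.96), Nr4a3, a nuclear receptor (r = 0.96), and Bag3, the co-chaperone of Hsp70 (r = 0.96). Closest to Cryab were Cdc37, an Hsp90 co-chaperone (r = 0.95), Aes (0.93) and Taldo1 (0.91). Closest to Hspb6 were Laptm4b (0.95), Zfp622 (0.94) and Pld3 (0.93), and to Hspb8 Rad23b (0.93), Ube2d2a (0.90) and Srf (0.89). Hspb7 was closest to Cygb (0.91), Ankrd1 (0.86) and Dpysl3 (0.86), Hspb2 to Tctex1d2 (0.93), Polr1c (0.91) and Mpv17 (0.91), and Hspb3 to Gimap8 (0.90), Fbxl22 (0.88) and Timm22 (0.88). Each r is over the 12 libraries. Without Slit2-IR replicate 1 the r of the same 3 genes was 0.95 to 0.97 for Hspb1, 0.86 to 0.90 for Hspb6, 0.80 to 0.88 for Hspb7 and 0.86 to 0.92 for Hspb8.

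The genes around the family were read from lists that were chosen with earlier results of these data known. None of the 3 other genes of the alpha-crystallin type could be tested. Cryaa, the lens crystallin, was listed at 0 in all 12 libraries, whereas the testis genes Hspb9 and Odf1 had at most 4 and 2 reads in a library. Of 4 genes listed, the heat shock factors Hsf1, Hsf2 and Hsf4 and the factor inhibitor Hsbp1, 0 were called in either genotype or averaged, and Hsf1 itself differed by 0.13 (SE 0.10) in the averaged comparison. Hsbp1 differed by 0.05 (SE 0.05).

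Of 12 heat shock-inducible chaperones 5 rose in each genotype, 10 rose averaged over genotypes, and none fell, where 0.387% (C57), 0.426% (Slit2) and 2.33% (averaged) of all tested genes were called higher. The median log2 difference was 1.31 in the averaged comparison, against 0.24 for the small heat shock proteins and 0.00 for all genes tested. Because the list was chosen with earlier results known, these counts and medians are descriptions and not an independent test. Hspa1b and Hspa1a, the inducible Hsp70 genes, rose by 6.91 and 5.94 on the log2 scale (adjusted p = 2.2e-07 each in limma), but they are near-identical copies between which reads may be split. Dnajb1, an Hsp40 partner of Hsp70, rose by 3.47, Hsp90aa1, the inducible Hsp90, by 2.19, and Hsph1, a nucleotide exchange factor, by 1.73. The Hsp40 genes Dnaja1 and Dnajb4 rose by 1.57 and 1.04, Bag3 by 0.87, the constitutive Hsp70 gene Hspa8 by 0.82 and the mitochondrial Hspe1 by 0.45. Hspd1, at 0.34 (adjusted p = 0.0616 in limma), and Hspa4l, at 0.06, did not pass. The Hspb1 difference of 1.78 thus lay between those of Hsp90aa1 and Hsph1, and the averaged differences of the other 6 small heat shock proteins (0.09 to 0.31) lay below that of Hspe1.

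**Figure D4:**
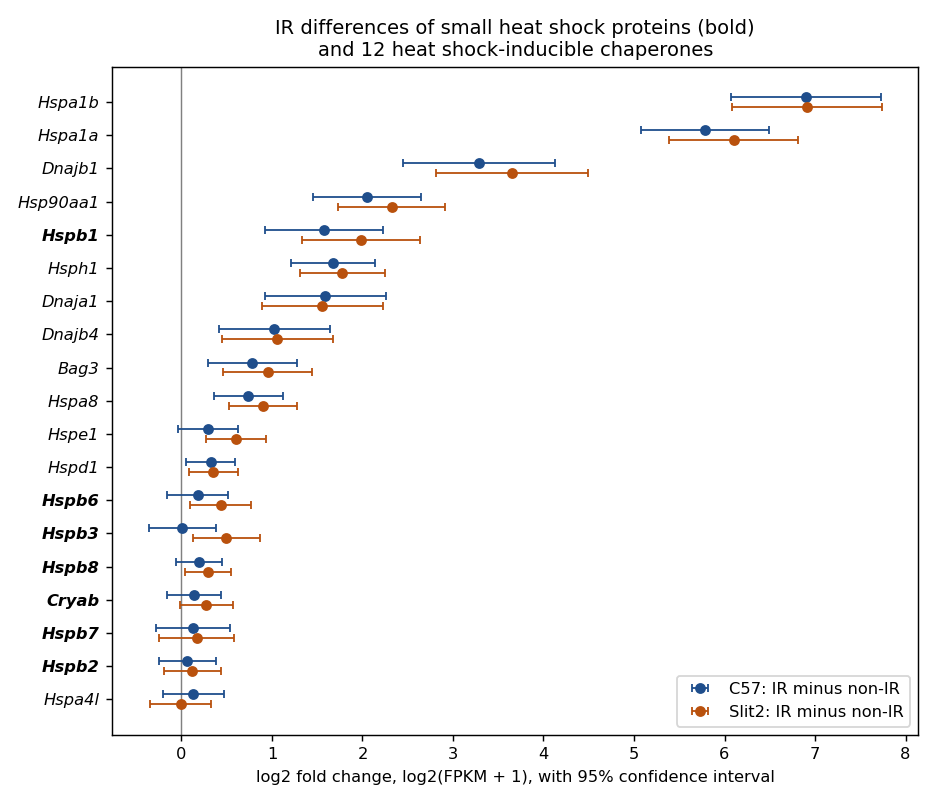
Fitted IR differences on the log2(FPKM + 1) scale (x axis) for the 7 small heat shock protein genes (bold) and 12 heat shock-inducible chaperones (y axis), with 95% confidence intervals, in C57 (blue) and Slit2 hearts (orange). The genes are ordered by the difference averaged over genotypes, from 6.91 for Hspa1b to 0.06 for Hspa4l, and Hspb1 stands in the upper part while the other members stand near 0.

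Other lists held fewer changes. Of 6 genes that act with Hspb8, Bag3 and Hspa8 rose in the averaged comparison (adjusted p = 0.0123 and 0.00471 in limma), and the ubiquitin ligase Stub1, the autophagy receptor Sqstm1, Synpo2 and Map1lc3b did not pass. Bag3 and Hspa8 are also in the chaperone list. Of 10 sarcomere and filament partners 0 passed the adjusted threshold, and 3 (Flnc, Csrp3 and Lmod2) had an unadjusted p under 0.05 in the averaged comparison, where 7.92% of tested genes did with higher values. Csrp3, a Z-disc protein, differed by 0.31 (SE 0.12). Desmin (Des) and titin (Ttn), clients of this family, differed by 0.05 (SE 0.13) and 0.15 (SE 0.53). Of 11 kinases and phosphatases listed as linked to small heat shock proteins 0 passed. In the averaged comparison 2 had an unadjusted p under 0.05, as for 7.92% of tested genes with higher values. These were Mapkapk2, the kinase of Hspb1, at 0.21 (adjusted p = 0.243 in limma), and Ppp2ca, a catalytic subunit of protein phosphatase 2A, at 0.12 (adjusted p = 0.254 in limma). The most abundant of the list, Ppp1ca and Dmpk, differed by 0.06 (SE 0.07) and -0.01 (SE 0.12).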

How the data were processed

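RNA-seq of 12 mouse hearts was analysed, 3 per group. Genotype came from the labels, and the IR state was read from the letters of the sample titles against the 4 groups named in the study's methods. The authors deposited FPKM values per gene, which they had computed from reads aligned to mm10. HISAT2 and mm10 are named in the submitters' processing notes, while which annotation was used, how reads were counted and whether by strand is not given in the sources used here. The deposited FPKM values multiplied by gene length were whole multiples of 1 step per library for 100% of values (tolerance 0.01), so whole reads were recovered, and the steps followed median-of-ratios size factors.

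FPKM was analysed as log2(FPKM + 1) with limma 3.58.1 in R 4.3.3 (moderated test with variance trend, 4 groups fitted together). Genes needed the equivalent of 10 reads in at least 3 libraries and 15 reads in all, which left 15258 genes. P-values were adjusted by the Benjamini-Hochberg method over all of them, with a threshold of 0.05 (two-sided). Adding 1 understates differences of low genes such as Hspb3. The script was tested on simulated data. Pairs of members were compared by exact permutation in Python 3.11.15. P-values measure the spread between the hearts sampled. Each group was taken as 3 independent hearts, since the study gives n = 3 per group, but the labels do not state this. All replicate pairs differed by more than sampling noise, most where replicate 1 was in the pair.

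Same-numbered libraries deviated together, with every correlation of residuals over 0.1, in the comparisons of Slit2-IR with Slit2-non-IR (0.142 to 0.295) and with C57-IR (0.154 to 0.362). The numbers were therefore taken to pair the libraries there. Replicate 1, which stood apart in every group, correlated at 0.285 to 0.324 in every comparison. Libraries with different numbers were not correlated for comparison. This rule thus cannot settle which comparisons are paired. The tests reported are without the block unless it is named. Whether and how libraries were paired is not given in the sources used here. Alternatives were a pseudocount of 0.1, other filters, only the groups compared, a replicate block, nuclear scaling, a robust prior, limma-voom on recovered reads and leaving out each library. Chosen after seeing the data were leaving out replicate 1 of every group, and, for pairs of members, relabeling within numbers and leaving out Slit2-IR replicate 1.

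The members and lists were chosen with earlier results of these data known. Named genes were the 7 members, list genes with an adjusted p under 0.05 in an IR comparison or otherwise the 2 most abundant, and for each member the 3 genes with the highest Pearson r. Genes of a list with an unadjusted p under 0.05 and the list genes Sqstm1, Stub1, Synpo2, Map1lc3b, Hspd1, Hspa4l and Ttn were named after their values were seen.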

Additional observations from a re-analysis of the deposited data

How the results depend on the processing

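Hspb1 was called with the genotypes averaged in every alternative, and no called value was reversed. Of 959 member values under alternatives, 946 stayed on the same side of the threshold, 6 passed it anew and 7 failed it anew. Among the 946 were 34 that changed sign with neither value past an unadjusted 0.05. In C57 hearts the number of members called, 0, became 1 (Hspb1) with a pseudocount of 0.1, with at least 10 reads in every library, with the replicate block (adjusted p = 0.0301 in limma) and with a robust prior, and was 0 to 1 with 1 library left out. In Slit2 hearts the number, 1, became 0 without a filter beyond 1 read (adjusted p = 0.0709, 28242 genes tested), and was 0 to 1 with 1 library left out. Without replicate 1 of every group, chosen after seeing the data, the numbers were 1 in C57 and 0 in Slit2 hearts, with 175 and 25 genes called in all. The cause was not tested. The block changed no other call of a member. By the rule of every correlation over 0.1, replicate numbers were taken to pair the samples in the comparisons of Slit2-IR with Slit2-non-IR and C57-IR. In the other comparisons the lowest correlations were 0.0837 and 0.038, but replicate 1 correlated at 0.295 (C57 hearts) and 0.324 (non-IR hearts) there. Over all genes the number called in the IR comparison of C57 hearts was 67, and 3 to 254 with a library left out or 7 to 171 otherwise. In Slit2 hearts it was 77, and 4 to 178 or 19 to 194, the highest with the replicate block. Averaged it was 531, and 329 to 713 or 299 to 773. Between the genotypes it was 6 without IR (1 to 14) and 7 after IR (3 to 12), and for the interaction 0 (0 to 4). Scaling to nuclear reads moved the median IR difference by -0.05. With 3 hearts per group a left-out library leaves 2, whose spread is pooled with the other groups.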
